A study of Homo sapiens with 3 samples.

Results

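The miR-548 family was examined in small RNA libraries of HCCLM3, a line of human hepatocellular carcinoma cells, of which 3 strains were compared. Its members were the 68 names beginning with hsa-miR-548 among the 1921 mature microRNAs (miRNAs) listed. The parent strain was labelled as having low metastasis, subclone1 as metastasizing to the lung, and subclone2 as metastasizing to both lung and celiac lymph node. The study describes its parental line, HCCLM3 carrying a red fluorescent protein, as highly metastatic, and its monoclonal lines as each grown from a single cell. The labels do not say which of those lines subclone1 and subclone2 are. All strains were grown in DMEM, RNA was taken with Trizol, and the Illumina TruSeq small RNA kit was used.

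MiR-548 is a large family found in primates. Its hairpins derive from MADE1, a short transposable element whose ends are reverse complements of each other, so that a transcribed copy folds back on itself. From either arm of such a hairpin (5p or 3p) a mature strand is cut, and its seed, bases 2 to 8, pairs with target mRNAs. Members that share a seed are therefore grouped below.

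In these libraries the family was broad by the number of names with counts, but scarce. Of the 68 names, 49 had at least 1 count in some library, yet all members together made up 0.0112% of the counts in parent cells, 0.0104% in subclone1 cells and 0.00865% in subclone2 cells. The summed level was 112 counts per 1e+06 counts of the library (CPM) in parent cells, 104 in subclone1 cells and 86.5 in subclone2 cells. The clearest differences between libraries were in single members. Hsa-miR-548a-3p had 11.8 CPM in parent cells, 21.0 in subclone1 cells and 18.8 in subclone2 cells, whereas hsa-miR-548h-5p was lowest in subclone2 and hsa-miR-548t-5p was lower in both subclones.

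The mature sequences below are those of the members on which the results turn and for which RefSeq (GRCh38.p14) has an entry under the same name. Capitals mark the seed. A first set carries the letters AAAGU, mostly in the seed, and its members come from 5p arms or from names without an arm:
hsa-miR-548k: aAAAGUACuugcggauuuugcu
hsa-miR-548av-5p: aAAAGUACuugcggauuu
hsa-miR-548ab: aAAAGUAAuuguggauuuugcu
hsa-miR-548ap-5p: aAAAGUAAuugcggucuuu
hsa-miR-548n: cAAAAGUAauuguggauuuugu
hsa-miR-548l: aAAAGUAUuugcggguuuuguc
hsa-miR-548t-5p: cAAAAGUGaucgugguuuuug
hsa-miR-548x-5p: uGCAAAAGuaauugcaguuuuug

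A second set carries the reverse complement ACUUU near the 3′ end, and its members come from 3p arms or from names without an arm:
hsa-miR-548x-3p: uAAAAACUgcaauuacuuuc
hsa-miR-548aq-3p: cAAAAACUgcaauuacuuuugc
hsa-miR-548aj-3p: uAAAAACUgcaauuacuuuua
hsa-miR-548o-3p: cCAAAACUgcaguuacuuuugc
hsa-miR-548u: cAAAGACUgcaauuacuuuugcg

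A pair of members with at least 20 counts held neither run:
hsa-miR-548ai: aAAGGUAAuugcaguuuuuccc
hsa-miR-548an: aAAAGGCAuugugguuuuug

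The same foldback is seen in the hairpins. Those of hsa-miR-548e and hsa-miR-548k are shown as DNA from GRCh38, because these were among the members with the most counts and each has 1 hairpin. Capitals mark a stretch of 8 bases that recurs later in the hairpin as its reverse complement, no longer one being present. MIR548E lies at chr10:110988926-110989013 on the plus strand, in an intron of SHOC2, and MIR548K at chr11:70283955-70284070 on the plus strand, in an intron of PPFIA1:
MIR548E: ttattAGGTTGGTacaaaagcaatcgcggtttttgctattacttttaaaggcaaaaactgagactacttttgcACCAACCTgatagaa
MIR548K: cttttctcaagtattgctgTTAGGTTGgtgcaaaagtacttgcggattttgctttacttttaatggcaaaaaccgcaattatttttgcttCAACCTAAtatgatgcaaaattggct

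Among the 43 members with a RefSeq entry, AAAGUAA was found in 14 (32.6%), of which 8 were 5p names, 0 were 3p names and 6 had no arm in the name. The same letters were in 1.02% of all 1576 matched miRNAs. The reverse complement UUACUUU was found in 13 members (30.2%), of which 10 were 3p names, 0 were 5p names and 3 had no arm, against 1.08% of all matched miRNAs. Both searches read the mature strand as written. No member held both AAAGU and ACUUU. The 43 sequences were 18 to 23 bases long, and their median GC content was 35%, compared with 50% in the 1533 other matched miRNAs.

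The family is spread over the genome. GENCODE (GRCh38) lists 72 MIR548 hairpins on 22 chromosomes, of which 36 lie in introns of protein-coding genes on the same strand, 4 in other genes and 32 in no gene on that strand. None lies in an exon of a protein-coding gene. Of the 68 members, 17 are given by more than 1 hairpin, so their counts cannot be assigned to a locus. Hsa-miR-548h-5p has 5 hairpins, among them MIR548H1 in an intron of ESR2 and MIR548H3 in an intron of HS3ST3A1, and hsa-miR-548a-3p has 3. Hsa-miR-548x-3p has 2. The following members have a single hairpin each. MIR548T lies at chr4:173268160-173268233 (plus strand) in an intron of GALNT7 and MIR548N at chr7:34940760-34940834 (minus) in an intron of DPY19L1. MIR548J lies at chr22:26555212-26555323 (minus) in an intron of TPST2 and MIR548L at chr11:94466495-94466580 (minus) in an intron of MRE11. MIR548AB, at chr3:103524033-103524116 (minus), lies in no annotated gene on its strand.

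The parent library held 7902438 counts, subclone1 3570864 and subclone2 4568075. With 1 library per strain no test between strains was possible, no ratio below has a replicate check, and each ratio compares libraries rather than strains or conditions. Intervals are exact 95% limits and cover counting error only, since reads amplified by PCR without molecular identifiers are not independent molecules. Hsa-miR-122-5p, which is abundant in hepatocytes, was near the level of single miR-548 members, with 53 counts in parent cells, 19 in subclone1 cells and 18 in subclone2 cells, so this hepatocyte marker was low in all libraries. Adapter ligation favours some RNA ends, and levels of different members therefore describe read counts.

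Detection was widest in the parent, the deepest library. It held 47 of the 68 members (69.1%), whereas subclone1 held 33 (48.5%) and subclone2 31 (45.6%). Of all 1921 names, the parent held 743 (38.7%), subclone1 670 (34.9%) and subclone2 675 (35.1%). At the depth of subclone1, 38.1 members would be expected in the parent and 28.9 in subclone2, compared with the 33 seen in subclone1. Over all names, 640 would be expected in the parent and 639 in subclone2, compared with the 670 seen in subclone1. Of the 49 members detected, 26 were seen in all libraries, 11 in the parent alone, 5 in the parent and subclone1, 5 in the parent and subclone2, and 2 in subclone1 alone. Those seen in the parent alone had at most 3 counts, which is the number that a count of 0 allows (0.840 CPM in subclone1 and 0.657 in subclone2), so a loss from the subclones was not detectable at this depth.

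A larger share of this family was detected than of other names. It was 72.1% of the 68 members, compared with 44.7% of the 1853 other names and 37.2% of the 1070 names with the numbers from 1000 upwards. This share counts names, and some near-identical members may have been listed from the same reads. Merging members with identical counts left 33 of 47 for the parent, 28 of 33 for subclone1 and 27 of 31 for subclone2. Such merging can also join unrelated names at low counts, and the share of other names was not recomputed with it. Most detected members were also at the limit of counting. Over the 3 libraries 14 members had at least 20 counts and held 1474 of the 1653 family counts (89.2%), 12 had 5 to 19 counts, 23 had 1 to 4, and 19 had none.

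**Figure D1:**
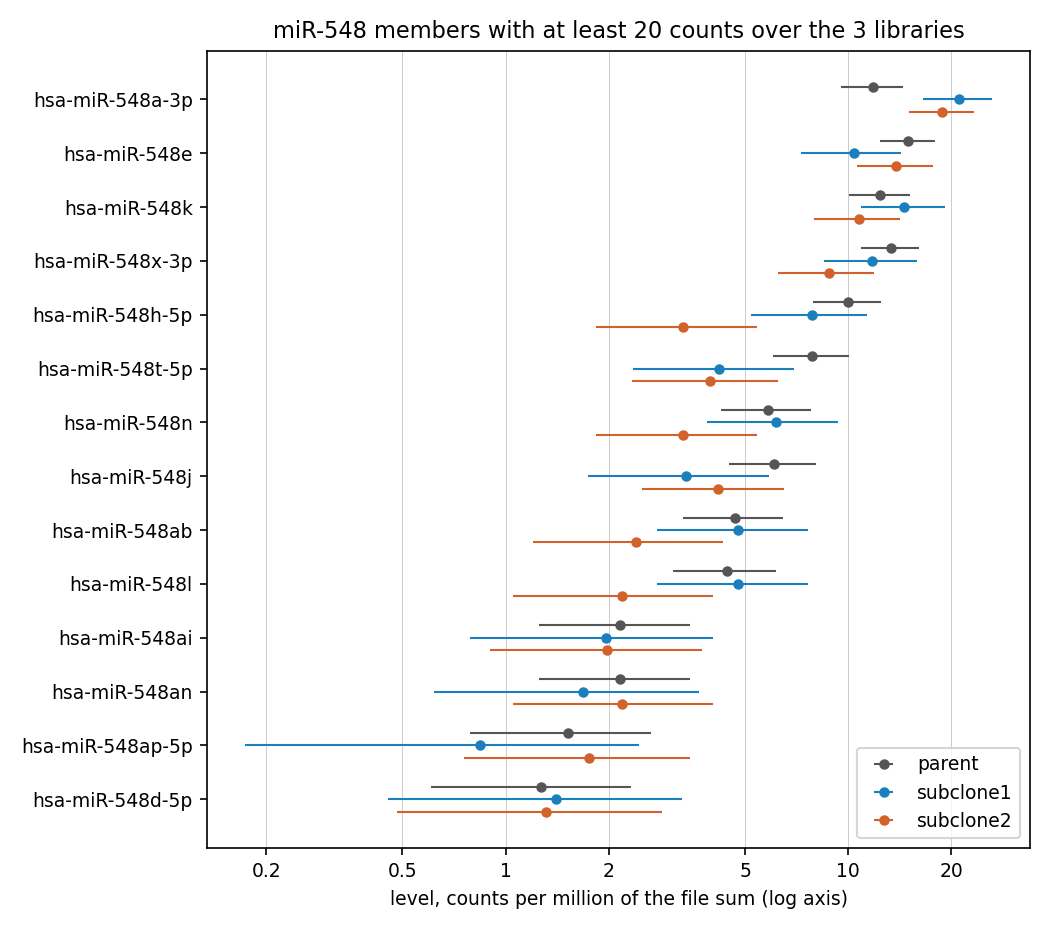
Level of the 14 miR-548 members with at least 20 counts, in CPM on a log axis, with 1 point per library and exact 95% counting intervals. Hsa-miR-548a-3p was highest in both subclones, and hsa-miR-548h-5p in subclone2 sat below its other libraries.

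Hsa-miR-548a-3p, a 3p strand, had the most counts over all libraries. It had 93 counts in parent cells (11.8 CPM), 75 in subclone1 cells (21.0 CPM) and 86 in subclone2 cells (18.8 CPM). It ranked 4 in the family in the parent, with 10.5% of the family counts, and 1 in both subclones, with 20.2% in subclone1 and 21.8% in subclone2. The parent was the low library, and the intervals of the share in the subclones, 16.2 to 24.7% and 17.8 to 26.2%, lay above that of the parent, 8.55 to 12.7%. The log2 ratio to the parent was 0.84 (0.38 to 1.29) in subclone1 and 0.68 (0.24 to 1.12) in subclone2, a difference of under 2-fold in each case.

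Hsa-miR-548e, from the hairpin in SHOC2, led the family in the parent. It had 118 counts in parent cells (14.9 CPM), 37 in subclone1 cells (10.4 CPM) and 63 in subclone2 cells (13.8 CPM). Subclone1 was lowest, but the interval of its log2 ratio to the parent, -0.51 (-1.10 to 0.02), included 0. In the parent the leading 4 members, hsa-miR-548e, hsa-miR-548x-3p, hsa-miR-548k and hsa-miR-548a-3p, lay between 11.8 and 14.9 CPM with overlapping intervals, so their order there was not resolved.

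Hsa-miR-548k and hsa-miR-548x-3p showed both sequence types at similar levels. Hsa-miR-548k had 98, 52 and 49 counts in the parent, subclone1 and subclone2, which is 12.4, 14.6 and 10.7 CPM. Hsa-miR-548x-3p had 105, 42 and 40 counts, which is 13.3, 11.8 and 8.76 CPM. The intervals of hsa-miR-548k overlapped in all libraries. For hsa-miR-548x-3p the log2 ratio of subclone2 to the parent was -0.59 (-1.17 to -0.06). Reads of these members may include those of close relatives. The 18 bases of hsa-miR-548av-5p lie whole within hsa-miR-548k, and hsa-miR-548x-3p shares a run of 19 bases with hsa-miR-548aj-3p.

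Hsa-miR-548h-5p, the 5p strand of 5 hairpins, differed most between the libraries. It had 79 counts in parent cells (9.997 CPM), 28 in subclone1 cells (7.84 CPM) and 15 in subclone2 cells (3.28 CPM). Subclone2 was the low library. The log2 ratio of subclone2 was -1.57 (-2.51 to -0.80) to the parent and -1.23 (-2.27 to -0.30) to subclone1, while that of subclone1 to the parent was -0.33 (-1.03 to 0.29). The other arm, hsa-miR-548h-3p, had 0 counts in all libraries.

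Hsa-miR-548t-5p, from the hairpin in GALNT7, was lower in both subclones. It had 62 counts in parent cells (7.85 CPM), 15 in subclone1 cells (4.20 CPM) and 18 in subclone2 cells (3.94 CPM). The log2 ratio to the parent was -0.87 (-1.82 to -0.07) in subclone1 and -0.97 (-1.84 to -0.22) in subclone2, just short of 2-fold. The subclones did not differ from each other beyond counting error, with a log2 ratio of -0.10 (0.13 under TMM). Both ratios rest on the same parent count, as do those of hsa-miR-548a-3p.

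Hsa-miR-548n, hsa-miR-548ab and hsa-miR-548l, all of the first set, had their lowest value in subclone2, as did hsa-miR-548k and hsa-miR-548t-5p, whereas hsa-miR-548ap-5p had its highest there. Hsa-miR-548n had 46, 22 and 15 counts (5.82, 6.16 and 3.28 CPM), hsa-miR-548ab 37, 17 and 11 (4.68, 4.76 and 2.41 CPM), and hsa-miR-548l 35, 17 and 10 (4.43, 4.76 and 2.19 CPM). Their log2 ratios of subclone2 to the parent were -0.79, -0.91 and -0.97, and each interval included 0. Hsa-miR-548n and hsa-miR-548ab share a run of 20 bases, so that reads may have been split between them. Hsa-miR-548l shares no run of 9 bases or more with another detected member that has a RefSeq entry. The 19 detected members without an entry could not be compared.

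Hsa-miR-548j, from the hairpin in TPST2, had 48 counts in parent cells, 12 in subclone1 cells and 19 in subclone2 cells (6.07, 3.36 and 4.16 CPM). Its log2 ratios to the parent, -0.81 in subclone1 and -0.52 in subclone2, had intervals that included 0. The remaining members with at least 20 counts were near 2 CPM or below. Hsa-miR-548ai had 17, 7 and 9 counts, hsa-miR-548an 17, 6 and 10, hsa-miR-548ap-5p 12, 3 and 8, and hsa-miR-548d-5p 10, 5 and 6. Differences among their libraries were not detectable at this depth.

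Across miRNAs, those with at least 20 counts over the libraries compared were kept, and a call required a ratio of at least 2-fold (0.5 counts added to each library) with an interval that excluded 1. For subclone1 against the parent, 12 members were kept. None was called higher, where the same rule called 9.79% of the 337 kept miRNAs, and none lower, where it called 5.04%. The log2 ratios of the 12 members ran from -0.87 (hsa-miR-548t-5p) to 0.84 (hsa-miR-548a-3p), with 5 above 0 and 7 below. These extremes were the members whose intervals excluded 0, which was 2 of 12, where 49.6% of all kept miRNAs had such an interval. Under TMM hsa-miR-548e joined them as lower, at -0.58 (-1.16 to -0.05), and 8 members were below 0. The shares of such intervals were not at like depth, since intervals widen as counts fall. A mean of at least 10 CPM was reached by 4 of the 12 members and by 192 of the 337 miRNAs. The median was -0.12 for the members and -0.01 for all kept miRNAs.

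For subclone2 against the parent, 13 members were kept. None was called higher (6.14% of the 342 kept miRNAs) and 1, hsa-miR-548h-5p, was called lower (9.36% of all kept). Of the 13 members, 10 had ratios below 0 and 3 above, where 63.2% of all kept miRNAs were below 0, and the median was -0.52, compared with -0.20 for all kept miRNAs. Under TMM these medians were -0.35 and -0.03, with 8 members (52.6% of all kept miRNAs) below 0 and 5 above. The distance between the members and all miRNAs was thus the same, since a scaling shifts both. For 4 of 13 members the interval excluded 0: hsa-miR-548a-3p was higher, and hsa-miR-548h-5p, hsa-miR-548t-5p and hsa-miR-548x-3p were lower. Such intervals were found for 51.2% of all kept miRNAs, again not at like depth. A mean of at least 10 CPM was reached by 187 of the 342 miRNAs and by 4 of the 13 members. Under TMM that of hsa-miR-548x-3p, -0.42 (-0.99 to 0.11), included 0, which left 3 of 13.

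For subclone2 against subclone1, 10 members were kept. None was called higher (1.02% of the 293 kept miRNAs) and 1, again hsa-miR-548h-5p, was called lower (6.14% of all kept). Of the 10 members, 8 had ratios below 0, where 67.2% of all kept miRNAs were, and the median was -0.43, compared with -0.18 for all kept miRNAs. Under TMM 6 members (46.8% of all kept miRNAs) were below 0, with medians of -0.20 and 0.05, and the interval of hsa-miR-548e, 0.64 (0.04 to 1.27), lay above 0. Over all kept miRNAs the split of higher against lower calls moved with the scaling. It was 33 to 17 for subclone1 against the parent and 29 to 23 under TMM, and 3 to 18 for subclone2 against subclone1 and 5 to 11 under TMM. The members called were those given above under each of these scalings. Under TMM, however, hsa-miR-548h-5p in subclone2 against subclone1 only just passed the 2-fold limit, at a log2 ratio of -1.002 (-2.03 to -0.07).

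**Figure D2:**
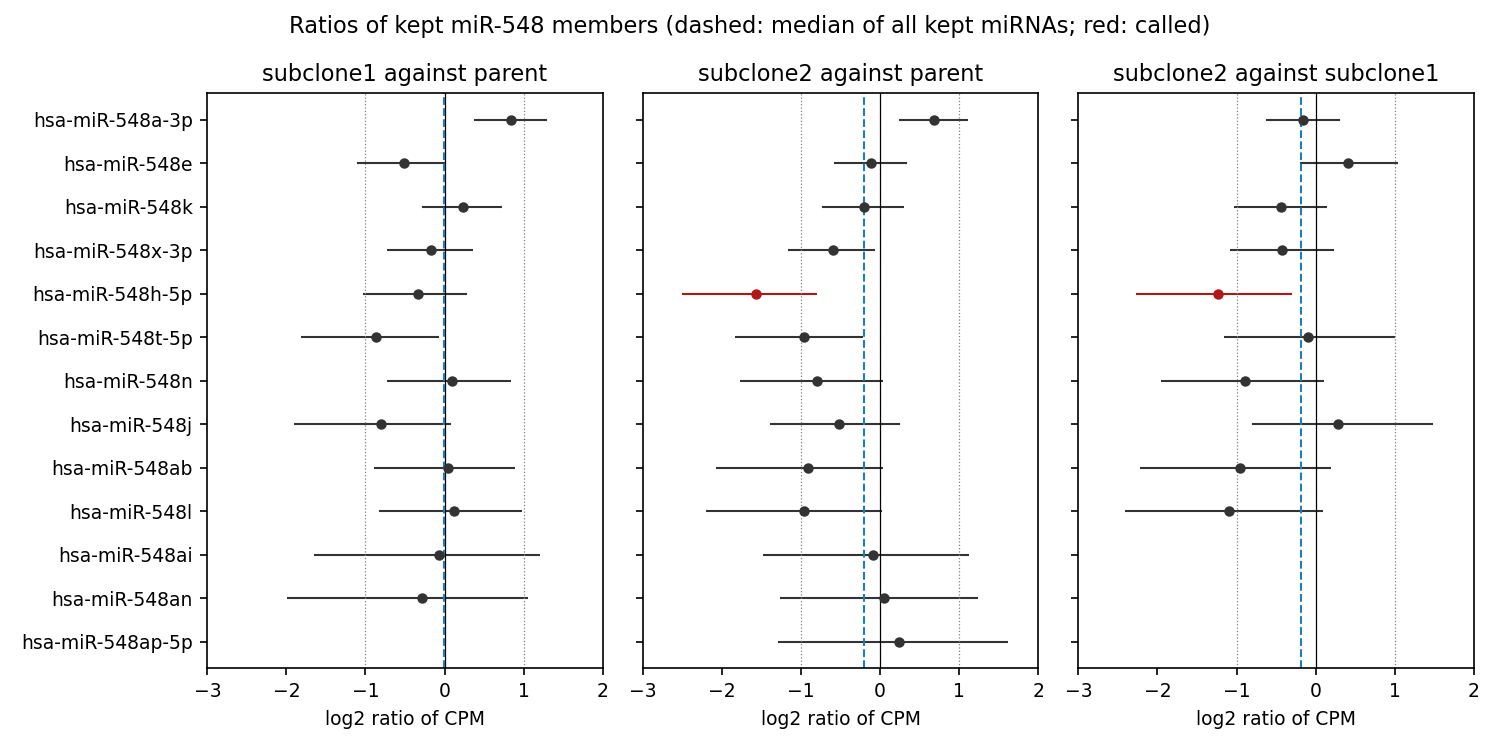
Log2 ratio of CPM for each kept miR-548 member in the 3 comparisons, with exact 95% counting intervals, the median of all kept miRNAs (dashed) and the 2-fold limits (dotted). Only hsa-miR-548h-5p (red) was called, at -1.57 against the parent and -1.23 against subclone1.

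The family sum was 887 counts in parent cells (112 CPM, 105 to 120), 371 in subclone1 cells (104 CPM, 93.6 to 115) and 395 in subclone2 cells (86.5 CPM, 78.2 to 95.4). Subclone2 was the low library. Its ratio to the parent was 0.770 (0.683 to 0.868), and its ratio to subclone1 was 0.832 (0.720 to 0.962), while that of subclone1 to the parent was 0.926 (0.818 to 1.05). Under TMM the ratio of subclone2 to the parent was 0.867 (0.768 to 0.977) and that to subclone1 was 0.978 (0.846 to 1.13). The difference between the subclones was therefore within counting error under that scaling. For subclone1 against the parent the ratio was 0.887 (0.784 to 1.002) under TMM, but 0.884 (0.781 to 0.999) under median-of-ratios scaling and 0.881 (0.778 to 0.995) by the file sum without the 10 most abundant miRNAs, both excluding 1.

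The leading member moved against the rest. Without hsa-miR-548a-3p the family sum in subclone1 was 0.825 (0.719 to 0.944) of that in the parent, and the sum in subclone2 0.673 (0.588 to 0.769). The members with under 20 counts had 110 counts together in parent cells, 33 in subclone1 cells and 36 in subclone2 cells, and their summed level was 0.664 (0.436 to 0.987) of the parent in subclone1 and 0.566 (0.377 to 0.832) in subclone2. The scarce members were also lower as a sum in both subclones, though none could be judged alone.

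The family was then divided by the arm in the name, with 20 5p names, 20 3p names and 28 names without an arm. The 5p names had 191 counts in parent cells (24.2 CPM), 57 in subclone1 cells (16.0 CPM) and 51 in subclone2 cells (11.2 CPM). The ratio to the parent was 0.660 (0.482 to 0.892) in subclone1 and 0.462 (0.332 to 0.632) in subclone2, and under TMM 0.633 and 0.520. Without hsa-miR-548h-5p, an alternative chosen after the values were seen, these ratios were 0.573 (0.367 to 0.868) and 0.556 (0.371 to 0.816), so the 5p names were lower in both subclones with or without it.

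The 3p names did not follow. They had 231 counts in parent cells (29.2 CPM), 130 in subclone1 cells (36.4 CPM) and 140 in subclone2 cells (30.6 CPM), with ratios to the parent of 1.25 (0.997 to 1.55) and 1.05 (0.844 to 1.30). This level rested on hsa-miR-548a-3p. Without it the other 3p names stood at 0.882 (0.633 to 1.21) of the parent in subclone1 and at 0.677 (0.485 to 0.934) in subclone2, the latter 0.762 (0.546 to 1.05) and within counting error under TMM. The names without an arm had 58.8, 51.5 and 44.7 CPM, a ratio of 0.876 (0.734 to 1.04) in subclone1 and 0.759 (0.641 to 0.897) in subclone2. Under TMM these were 0.839 (0.703 to 0.997) and 0.854 (0.721 to 1.009). Under median-of-ratios scaling they were 0.836 (0.701 to 0.994) and 0.840 (0.709 to 0.993). By the file sum without the 10 most abundant miRNAs they were 0.833 (0.699 to 0.990) and 0.798 (0.673 to 0.943). Under the last of these scalings and median-of-ratios, both subclones lay below the parent beyond counting error. Which subclone did so thus turned with the scaling.

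**Figure D3:**
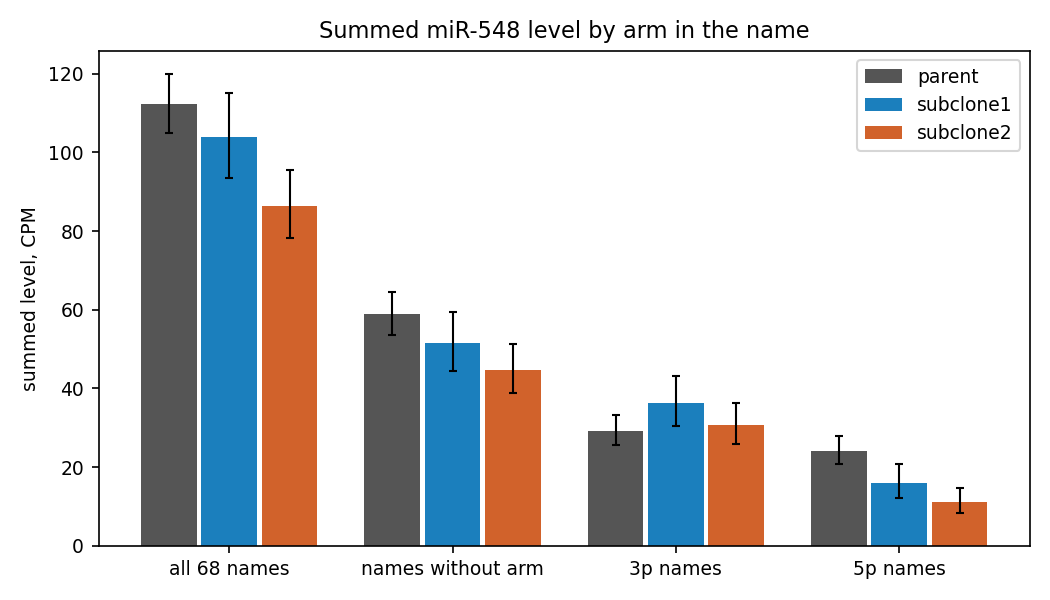
Summed level in CPM of all 68 miR-548 names and of the names without an arm, with 3p and with 5p, with 1 bar per library and exact 95% counting intervals. The 5p names stood at 24.2 CPM in parent cells, 16.0 in subclone1 cells and 11.2 in subclone2 cells, and the 3p names between 29.2 and 36.4 CPM.

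As a result of these sums, 5p strands made up 45.3% (40.4 to 50.1) of the arm-named counts in parent cells, 30.5% (24.0 to 37.6) in subclone1 cells and 26.7% (20.6 to 33.6) in subclone2 cells. The parent was the high library, and its interval did not overlap those of the subclones. This rested on hsa-miR-548a-3p, without which the shares were 58.1% (52.5 to 63.4), 50.9% (41.3 to 60.5) and 48.6% (38.7 to 58.5) with overlapping intervals. When 17 names without an arm were placed by where the RefSeq mature sequence lies in the hairpin, the 5p level was 56.1 CPM in parent cells, 49.8 in subclone1 cells and 34.2 in subclone2 cells. The ratio to the parent was then 0.889 (0.743 to 1.06) in subclone1 and 0.609 (0.504 to 0.733) in subclone2, so the difference of subclone1 was within counting error under this grouping while that of subclone2 was not.

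Sequence type did not repeat the division by the arm in the name. The 20 members holding AAAGU, the first set printed above with its relatives, had 307 counts in parent cells, 131 in subclone1 cells and 116 in subclone2 cells (38.8, 36.7 and 25.4 CPM), with ratios to the parent of 0.944 (0.764 to 1.16) and 0.654 (0.523 to 0.812). The 15 members holding ACUUU had 145, 52 and 62 counts (18.3, 14.6 and 13.6 CPM), and both ratios to the parent, 0.794 and 0.740, had intervals that included 1. In subclone2 the intervals of both types overlapped. The AAAGU ratios were close to those of the 5p group with names placed by hairpin, 0.889 for subclone1 and 0.609 for subclone2. In both groupings only subclone2 was lower than the parent beyond counting error. The 25 names without a sequence, among them hsa-miR-548h-5p and hsa-miR-548a-3p, do not enter the sums by sequence type. Arm and sequence type were therefore not compared over the same members.

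Of the arms listed under one hairpin name, 1 usually held nearly all counts, although some of these names stand for more than 1 hairpin. Of 20 hairpin names listed with both arms, 9 had at least 10 counts, and in 8 of these the same arm led in every library. The 5p arm led in hsa-miR-548h (122 counts to 0), hsa-miR-548t (95 to 11), hsa-miR-548ap (23 to 1) and hsa-miR-548d (21 to 1). The 3p arm led in hsa-miR-548a (254 to 3), hsa-miR-548x (187 to 6), hsa-miR-548o (18 to 3) and hsa-miR-548aq (11 to 0). The exception was hsa-miR-548aj, with 4 counts for 5p and 6 for 3p. No hairpin name with 11 counts or more changed its leading arm between libraries.

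**Figure D4:**
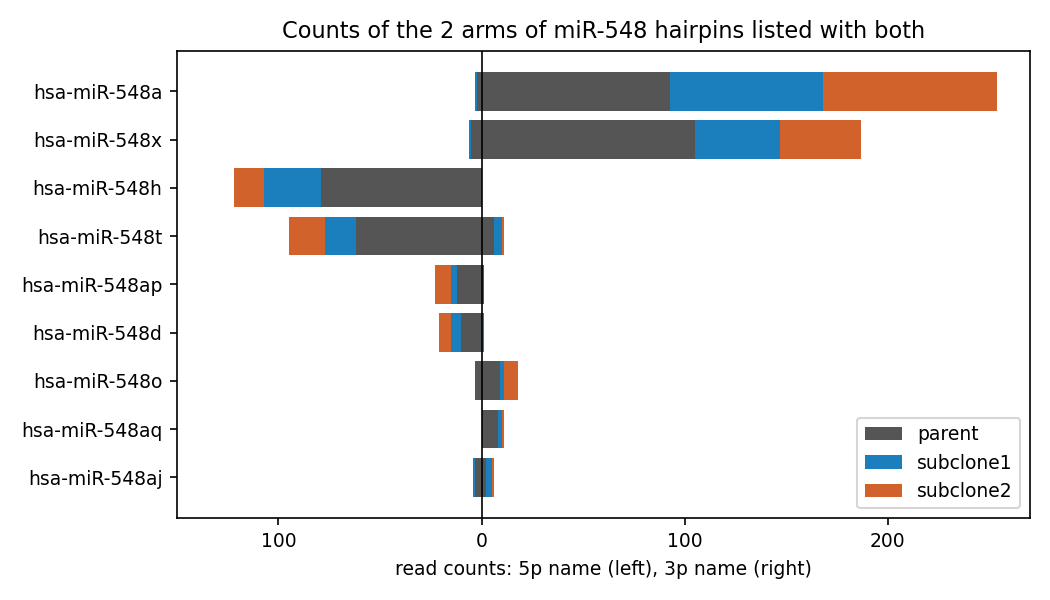
Read counts of the 5p name (left of 0) and the 3p name (right of 0) for the 9 miR-548 hairpin names with at least 10 counts, stacked by library. Each bar lies almost wholly on one side except that of hsa-miR-548aj, with 4 counts for 5p and 6 for 3p.

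By seed, the 43 members with a sequence fell into 27 groups, of which 22 had a single member. The other 25 names were placed in no group. Among them were hsa-miR-548a-3p and hsa-miR-548e, with 254 and 218 counts in all, so the order of seeds below holds only for the 43. The largest by counts was AAAAACU, held by hsa-miR-548x-3p, hsa-miR-548aq-3p, hsa-miR-548aj-3p, hsa-miR-548am-3p and hsa-miR-548ah-3p, with 117, 47 and 46 counts in the parent, subclone1 and subclone2 (14.8, 13.2 and 10.1 CPM). AAAGUAC, held by hsa-miR-548k and hsa-miR-548av-5p, had 99, 52 and 52 counts (12.5, 14.6 and 11.4 CPM). The seed with the most members, AAAGUAA, was shared by 9, of which 4 were detected with 52, 21 and 19 counts in all. In each of these groups 1 member held most of the counts.

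Lesser seeds were seen at a few counts. CAAAACU, of hsa-miR-548o-3p, had 9, 2 and 7 counts in the parent, subclone1 and subclone2 and is shared with hsa-miR-1323. AAAGACU, of hsa-miR-548u, had 10, 1 and 4 counts. GCAAAAG, of hsa-miR-548x-5p, hsa-miR-548aj-5p and hsa-miR-548g-5p, had 11, 3 and 0 counts. Hsa-miR-548p (AGCAAAA) and hsa-miR-548ac (AAAAACC) had 7 and 6 counts in all.

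Some names could not be told apart by their reads. Hsa-miR-548ai and hsa-miR-570-5p have the same mature sequence, printed above, and the same 17, 7 and 9 counts, so those reads were listed under both names and belong to either. Hsa-miR-570-3p, from the related miR-570 hairpin, had 3, 2 and 1 counts, and the related hsa-miR-603 had 1, 0 and 0. Hsa-miR-548x-5p, hsa-miR-548aj-5p and hsa-miR-548g-5p also share 1 sequence, but they were listed with 5, 1 and 0 counts for the first and 3, 1 and 0 for each of the others, so equal sequences were not always given equal counts. Hsa-miR-548aa and hsa-miR-548t-3p had the same 6, 4 and 1 counts, as did hsa-miR-3065-3p, so equal low counts also arose with a name outside the family. The same was seen at 5 to 7 counts in all for hsa-miR-548aj-3p (with hsa-miR-4684-3p), hsa-miR-548ae (with hsa-miR-3200-5p and hsa-miR-9-3p), hsa-miR-548p (with hsa-miR-328 and hsa-miR-3614-3p) and hsa-miR-548x-5p (with hsa-miR-10b-5p).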

How the data were processed

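Small RNAs of 3 HCCLM3 strains were sequenced, with 1 library each. The authors deposited read counts per mature miRNA name, unscaled. The submitters' processing notes name CASAVA 1.4 and hg19. The trimming, aligner, mismatch limit, miRBase release and handling of reads matching several names are not given in the sources used here, and assignment among near-identical miR-548 members may have been uneven.

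Members were all names beginning with hsa-miR-548. Members, lists and tests were chosen with earlier results of these data known. Counts were scaled to the file sum (7902438, 3570864 and 4568075 counts). A count of 0 allowed 0.380, 0.840 and 0.657 CPM (3 counts). Levels and shares carry Clopper-Pearson intervals, and ratios exact conditional binomial intervals (scipy 1.17.1), all at 95%. A call needed at least 20 counts over the libraries compared, a ratio of at least 2-fold with 0.5 counts added, and an interval excluding 1. It compares libraries, and no p-value is given. The rule was tested on simulated data. The number detected at the lowest depth was computed by hypergeometric rarefaction.

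Named members had at least 20 counts over all libraries, were called, led a seed group with at least 5 counts, or had counts identical to another name with at least 5 counts. Names outside the family were those identical in counts, hsa-miR-570 and hsa-miR-603. Hsa-miR-122-5p was added as a hepatocyte marker.

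Sequences were matched to RefSeq (GRCh38.p14) by exact name, for 43 of the 68 members, 53.5% of the family counts and 1576 of the 1921 names. Hairpin positions are from GENCODE (GRCh38). Alternatives were TMM (edgeR 4.0.16), median-of-ratios, a file sum without the 10 most abundant miRNAs, other minimums and folds, 5 counts added, and arms and copies summed.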

Additional observations from a re-analysis of the deposited data

How the results depend on the processing

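No called value changed sign, but few of the 332 alternative values belonged to a called result. Many were counts, levels or shares, which cannot change sign. The 140 recomputed ratios of 13 named members all stayed on the same side of the call. Among them only hsa-miR-548h-5p in subclone2 was called, narrowly so against subclone1 under TMM (-1.002). Of 173 log2 ratios and medians recomputed, 16 changed sign, all of them uncalled and within 0.283 of 0 before the change. They were the median of the kept members in subclone1 against the parent, 0.18 with 5 counts added, and 7 ratios, of hsa-miR-548ab, hsa-miR-548ai (in both subclones) and hsa-miR-548an against the parent, of hsa-miR-548e in subclone2 against the parent, and of hsa-miR-548a-3p and hsa-miR-548t-5p between the subclones. Requiring 3 counts, 31, 18 and 20 members were detected in the parent, subclone1 and subclone2, and requiring 10 counts 16, 10 and 11. Without hsa-miR-548a-3p the family sum was 100.5, 82.9 and 67.6 CPM, and its log2 ratio of subclone2 to the parent was -0.57. The log2 ratio of the family sum of subclone2 to subclone1 was -0.032 under TMM and -0.051 under median-of-ratios scaling. At 1.5-fold, 1 member was higher and 1 lower in subclone1, and 1 was higher and 3 lower in subclone2 against the parent. The 1 lower call of subclone2, against the parent and against subclone1, became 0 at 4-fold and with an interval wholly beyond 2-fold. It was also 0 with a mean of at least 10 CPM, but that minimum left out hsa-miR-548h-5p itself and so could not test the call. With arms and copies summed, 2 of 13 kept hairpin names (hsa-miR-548h and hsa-miR-548t) were lower in subclone2 against the parent. Of all 263 names kept under that setting, 26 were lower. The 5p share was 58.1%, 50.9% and 48.6% without hsa-miR-548a-3p, 64.0%, 57.2% and 51.0% with names placed by hairpin, and 32.7%, 18.2% and 20.5% without hsa-miR-548h-5p (chosen after seeing the data). The cause of the shifts between scalings was not tested.

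Over all kept miRNAs, the calls for subclone1 against the parent (33 higher, 17 lower) were 53 and 38 at 1.5-fold, 9 and 1 at 4-fold, 15 and 2 with the interval beyond 2-fold, 19 and 6 with a mean of at least 10 CPM, and 34 and 7 with 5 counts added. For subclone2 against the parent (21 and 32) they were 30 and 65, 7 and 5, 12 and 9, 11 and 9, and 21 and 19. For subclone2 against subclone1 (3 and 18) they were 5 and 42, 0 and 2, 0 and 5, 3 and 8, and 2 and 17, and without a minimum 5 and 28. Without a minimum the calls against the parent were 45 and 22 in subclone1 and 35 and 40 in subclone2. No paired analysis was possible because a strain had only 1 library, and no replicate could be left out. Depth limits the rest: 54 members had under 20 counts, too few to judge alone.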
